A study of Mus musculus with 12 samples.

Results

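Receptors for GABA, glycine, acetylcholine, serotonin, dopamine and noradrenaline, together with the kainate and metabotropic receptors for glutamate, were followed in the hippocampal CA1 subfield of mice. Members were the genes whose only symbol in the platform annotation starts with the letters of these families (Gabr, Gabbr, Glra, Grm, Grik, Chrn, Chrm, Htr, Drd, Adra1, Adra2 and Adrb), and each gene was read from its brightest probe set. These letters took 60 of the 12394 genes measured. Of the 60, 57 encode receptor subunits, and the other three, Htra1, Htra2 and Htra3, are serine proteases that share only their first letters with the serotonin receptors. The receptors comprised 13 GABA-A, 1 GABA-B, 3 glycine, 4 kainate, 1 metabotropic glutamate, 14 nicotinic, 3 muscarinic, 13 serotonin, 3 dopamine, 1 alpha1-adrenergic and 1 alpha2-adrenergic receptor genes. Beta-adrenergic receptors and many other subunits of these families were not analysed here.

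The samples were total RNA of CA1 tissue on 12 Affymetrix arrays, 3 in each of 4 groups. The groups were wild-type mice after sham surgery, wild-type mice after 10 minutes of transient forebrain ischemia and 3 hours of reperfusion, and SUMO-KD mice after each of the same procedures. SUMO-KD stands for knockdown of SUMO (small ubiquitin-like modifier), which cells couple to many proteins to alter their function. The construct and the promoter behind the knockdown, and the age of the animals, are not stated in the sources used here. Each sample joined tissue of 2 brains, so a value is a mean over 2 animals. Samples are called biological replicates in the labels, with no word on litter or day of surgery, and p-values measure the spread between these pools only. The comparisons asked how ischemia changed receptor transcripts in each genotype, and whether the knockdown changed them or their response.

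Ionotropic receptors of these families are channels built of several subunits. GABA-A and glycine receptors pass chloride and mostly inhibit adult neurons, while kainate, nicotinic and 5-HT3 receptors pass cations and excite. The others are G protein-coupled receptors. GABA-B, 5-HT1, D2-like, alpha2-adrenergic and group II and III metabotropic glutamate receptors act through Gi/o and dampen excitability or transmitter release, whereas M1 and M3 muscarinic receptors act through Gq and 5-HT6 receptors through Gs. In CA1, pyramidal cells carry synaptic and extrasynaptic GABA-A receptors, GABA-B receptors, M1 receptors and 5-HT1A receptors, the last of which hyperpolarise them through potassium channels.

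Sumo3, the SUMO gene that the table measured with a single symbol, was lower in the SUMO-KD arrays: 1337 to 1689 against 2247 to 2467 in sham and 1879 to 1936 against 3245 to 3518 after ischemia. The median intensity of the arrays was 141 to 162. Control probes for the 5′ end of 18S ribosomal RNA read 4194 to 6528 in sham arrays and 1275 to 1660 in 5 of the 6 ischemia arrays, but 4127 in SUMO-KD ischemia replicate 2. Of 7 listed CA1 pyramidal markers 3 had a value: Wfs1, Pou3f1 and Man1a. Their summed intensity was 5048 to 7227 in wild-type sham and 3102 to 4066 in wild-type ischemia arrays. In SUMO-KD it was 2806 to 3850 in sham and 3063 to 3536 in ischemia arrays. It separated by surgery in wild-type only, and by genotype in sham only. Wfs1 and Pou3f1 were called lower with ischemia in wild-type (-0.60 and -0.80), and Man1a was not (-0.48). In SUMO-KD sham Wfs1 and Man1a were called lower (-0.87 and -0.85), and Pou3f1 was not (-0.88). The sum of 5 of 6 dentate granule cell markers was 2310 to 3838 in wild-type sham and 1906 to 2062 in wild-type ischemia arrays, and 3134 to 4351 and then 1851 to 2260 in SUMO-KD. Single dentate markers went both ways: over both genotypes 2 were called higher (Prox1 and Rfx3, 0.62 and 0.39) and 3 lower (Dsp, Tdo2 and Lct, -0.48, -0.49 and -1.37). The sum of 6 of 6 general neuronal markers stayed between 20585 and 24256, with 0 called for ischemia in either genotype by limma (0 in wild-type and 0 in SUMO-KD at an unadjusted p under 0.05). The summed intensity of 5 of 6 microglia markers was 4185 to 4508 in wild-type sham and 3017 to 3262 in wild-type ischemia arrays, and 4090 to 4315 and then 2997 to 3389 in SUMO-KD, with 4 of the 5 called lower over both genotypes (Tmem119, P2ry12, Cx3cr1 and Csf1r). That of 6 of 6 endothelial markers was 1965 to 2410 and then 1415 to 1820 in wild-type, and 1644 to 2162 and then 1419 to 1537 in SUMO-KD, with 2 called lower and 1 higher over both. Of 12 interneuron markers, Sst, Pvalb and Vip were called lower in wild-type ischemia arrays (-0.40, -0.37 and -0.62, limma adjusted p = 0.0488, 0.0322 and 0.0427) and 0 in SUMO-KD. In wild-type 6 of the 12 changes were negative and 6 positive, the latter including Gad1 (0.03), Gad2 (0.06), Npy (0.25) and Calb2 (0.32), none of them called. The sum of 7 of 7 astrocyte markers was 22030 to 23823 in SUMO-KD sham against 17662 to 21652 in wild-type sham arrays, with Gfap and Aqp4 called higher (0.59 and 0.52, adjusted p = 0.0449 and 0.0253). Gfap alone of the 7 was called with ischemia. It was higher in wild-type (0.77, limma adjusted p = 0.00215) and over both genotypes (0.57, adjusted p = 0.000876), and was not called in SUMO-KD (0.38). No listed marker was at 0 on any array. The part of cell composition or of RNA state in the receptor results was not tested. In tissue RNA, fewer cells of a type and less RNA per cell cannot be told apart.

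Most of the receptor signals were weak. The mean intensity over the 12 arrays was below 32 for 29 of the 57 receptors (50.9%), against 22.3% of all genes, from 32 to 100 for 16, and at least 100 for 12. The 12 were Gabbr1, Gabrb1, Grik5, Gabra2, Gabrg1, Htr1a, Adra2c, Gabrd, Htr1b, Htr3a, Htr5b and Chrna4. Intensities of different probe sets depend on their sequences and are not compared here between genes. Changes are log2 differences of (intensity + 32), a scale that understates changes of weak signals, and "called" means an adjusted p under 0.05 in limma's moderated test, with Benjamini-Hochberg adjustment over all 12394 genes.

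After ischemia, averaged over both genotypes, 6 receptor genes fell and 0 rose: Htr1a, Gabrb1, Chrm1, Chrm3, Chrna5 and Htr6. The 6 were 10.5% of the 57 receptors, below the 14.0% of all genes that fell, while 12.8% of all genes rose (26.7% changed either way); a count of this size is therefore not particular to the receptors. In wild-type mice 3 fell (Htr1a, Chrm3 and Chrna5) and 0 rose, where 8.88% of all genes fell and 9.59% rose (18.5% in all). In SUMO-KD mice 1 fell (Htr1a) and 0 rose, where 4.62% of all genes fell and 6.08% rose (10.7% in all). At an unadjusted p under 0.05 the numbers of receptors were 8 for the mean response, 7 in wild-type and 4 in SUMO-KD. Over all 12394 genes they were 4651, 3883 and 2991. The median log2 change of the 57 receptors was -0.13 in wild-type and -0.01 in SUMO-KD, beside -0.04 and -0.02 for all genes. In wild-type 41 of 57 were negative (71.9%, against 55.9% of all genes), and in SUMO-KD 30 of 57 (52.6%, against 54.3%). Most of this gap lay in weak signals: 21 and 12 of the 29 receptors below 32 were negative in wild-type and SUMO-KD. The numbers were 10 and 9 of the 16 from 32 to 100, and 10 and 9 of the 12 of at least 100. The 29 receptors with a mean below 32 held 0 of the calls; of the 2763 genes this dim, 80 rose and 42 fell over both genotypes, so few calls would be looked for among 29. Among the 12 with a mean of at least 100, 2 fell over both genotypes (16.7%, against 19.9% of the 7860 genes this bright).

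**Figure D1:**
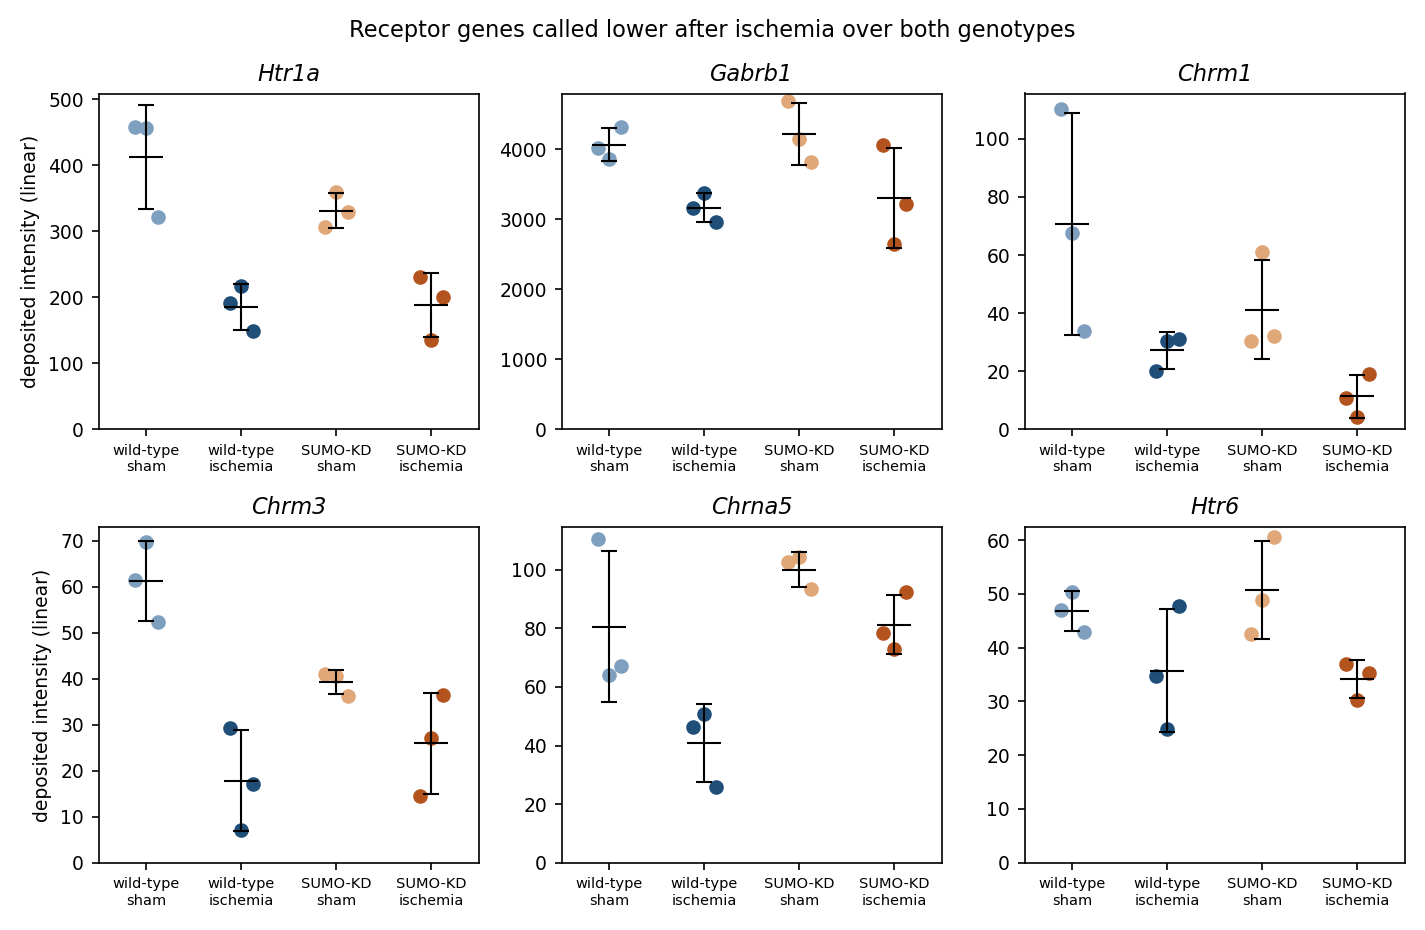
Deposited intensity (vertical axis, linear) of the 6 receptor genes called lower after ischemia over both genotypes, by group; points are arrays, bars the mean ± SD of 3 arrays. For Htr1a all 6 ischemia arrays (136 to 231) lie below all 6 sham arrays (306 to 458); for the other 5 genes some ischemia arrays reach into the range of sham arrays.

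Htr1a, the 5-HT1A serotonin receptor, had the largest fall among the receptors called, and the plot of called receptors shows it without overlap. Its intensity was 458, 457 and 321 in wild-type sham arrays and 191, 217 and 148 in wild-type ischemia arrays. In SUMO-KD it was 306, 359 and 329 after sham surgery and 231, 136 and 199.7 after ischemia. Every ischemia array of either genotype was thus lower than every sham array. Htr1a fell by 1.03 in wild-type (2.04-fold, SE 0.18, limma adjusted p = 0.00283), by 0.74 in SUMO-KD (1.67-fold, SE 0.18, adjusted p = 0.0253) and by 0.88 over both (1.85-fold, adjusted p = 0.000461). The responses differed by 0.29 (95% interval -0.29 to 0.86), which did not pass (adjusted p = 0.912). The wild-type call stood in each of 12 fits that left out 1 array and in 11 other settings. Leaving out a SUMO-KD array cannot alter the wild-type change itself, only the shared estimate of spread and the adjustment. The SUMO-KD call did not stand when any array of the SUMO-KD sham group, or SUMO-KD ischemia replicate 2 or 3, was omitted (adjusted p of 0.0532 to 0.0981), and with the mean of both Htr1a probe sets (-0.36, adjusted p = 0.174). The second Htr1a probe set, with a mean intensity of 56.0, changed by -0.36 in wild-type and 0.02 in SUMO-KD.

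Gabrb1, the beta1 subunit of GABA-A receptors, is the other bright receptor that fell, and the promoters of both are shown so that the start regions of genes that fell together can be read side by side. Each is the stretch of 250 bases before the annotated start, 5′ to 3′, from RefSeq, GRCm38.p6, with capitals marking a GC box (GGGCGG, searched on both strands). Htr1a lies at chr13:105443443-105443692 on the plus strand and Gabrb1 at chr5:71657671-71657920 on the plus strand.
Htr1a: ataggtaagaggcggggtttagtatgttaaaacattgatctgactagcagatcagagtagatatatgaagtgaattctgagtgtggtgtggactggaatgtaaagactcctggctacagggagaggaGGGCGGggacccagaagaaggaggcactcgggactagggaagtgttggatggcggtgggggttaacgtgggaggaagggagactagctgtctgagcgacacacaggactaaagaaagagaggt
Gabrb1: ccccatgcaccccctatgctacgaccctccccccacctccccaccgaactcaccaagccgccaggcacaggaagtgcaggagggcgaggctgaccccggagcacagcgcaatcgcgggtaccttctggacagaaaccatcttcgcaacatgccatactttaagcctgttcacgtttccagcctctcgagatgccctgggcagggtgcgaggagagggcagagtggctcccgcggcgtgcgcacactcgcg
The Htr1a stretch had 1 GC box and a GC content of 50.4%, and the Gabrb1 stretch had 0 and 64.4%. Neither held a full cAMP response element (TGACGTCA), an AP-1 site (TGACTCA or TGAGTCA), an EGR site (GCGTGGGCG or GCGGGGGCG) or a TATA box (TATAAA), and a second Gabrb1 start had none of these motifs either. Of 32851 promoters of this length, 1.55% held the cAMP response element, 4.46% the AP-1 site, 3.06% the EGR site, 12.4% the TATA box and 32.7% the GC box, the last added to the search after the sequences were seen. In the 56 receptor promoters, of 46 receptor genes, the shares were 0.0%, 3.57%, 5.36%, 7.14% and 42.9%. Among the 8 promoters of 5 of the called receptors, 3 held a GC box, those of Htr6, Chrna5 and Htr1a, and 0 held another of these motifs. A missing match says only that these letters are not in this window.

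GABA-A receptors were represented by 13 subunit genes. Gabrb1 fell over both genotypes and 0 rose, where 14.0% of all genes fell and 12.8% rose. Gabrb1 read 4014, 3856 and 4322 in wild-type sham, 3166, 3372 and 2961 in wild-type ischemia arrays, 4689.7, 4143 and 3821 in SUMO-KD sham and 4063, 2640.5 and 3212 in SUMO-KD ischemia arrays. All wild-type ischemia arrays were below the wild-type sham arrays, and in SUMO-KD ischemia replicate 1 lay within the sham range. Its log2 change was -0.36 (SE 0.10, limma adjusted p = 0.0196) over both genotypes, with -0.36 in wild-type (adjusted p = 0.105) and -0.37 in SUMO-KD (adjusted p = 0.133), neither of which passed alone. Gabrb1 was called in SUMO-KD (-0.52, adjusted p = 0.0225) and in wild-type (adjusted p = 0.0457) once SUMO-KD ischemia replicate 1 was left out.

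Gabrg1 and Gabra2 lie in the same cluster on chromosome 5 as Gabrb1, with no coding gene between Gabrg1 and Gabra2 and 2 coding genes between Gabra2 and Gabrb1 in the RefSeq gene table. They were chosen for mention after their values were seen. Gabra2, a synaptic alpha subunit, ran from 287 to 478 in wild-type ischemia arrays and from 419 to 601 in wild-type sham arrays, which overlap, and changed by -0.30 over both genotypes (95% interval -0.64 to 0.04, limma adjusted p = 0.191). Gabrg1, a gamma subunit, changed by -0.28 (95% interval -0.58 to 0.02, adjusted p = 0.164). Gabrd, the delta subunit of extrasynaptic receptors, read 137, 139 and 230.2 in wild-type sham and 185, 232 and 214 in wild-type ischemia arrays, a change of 0.30 that did not pass (adjusted p = 0.212). Only wild-type sham replicate 3 reached the ischemia range, and without it the Gabrd change in wild-type was 0.51 (adjusted p = 0.0117). Over the 13 GABA-A genes the median change was -0.17 in wild-type and -0.07 in SUMO-KD, with single genes between -0.41 and 0.42 in wild-type.

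Gabbr1, the ligand-binding subunit of the GABA-B receptor, had 6184, 5152 and 5883 in wild-type sham, 4503, 5538 and 5051 in wild-type ischemia arrays, 5568, 5260.1 and 6431 in SUMO-KD sham and 5095, 4843 and 5088 in SUMO-KD ischemia arrays. The SUMO-KD ischemia arrays were all below the SUMO-KD sham arrays, and the wild-type groups overlapped. Its change over both genotypes was -0.19 (95% interval -0.36 to -0.02), which did not pass (limma adjusted p = 0.0899), though it did with the trend and robust settings of eBayes (adjusted p = 0.0425). Gabbr1 had 3 further probe sets, with mean responses of -0.04, -0.15 and 0.14, the last from a probe set with a mean intensity of 14.6. The 3 glycine receptor alpha genes all had means below 32, between 0.5 and 25.3 on single arrays, and 0 were called.

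Kainate receptors, the glutamate-gated channels among the members, showed no called change. Grik5, the GluK5 subunit that modifies channels formed by other kainate subunits, read 945, 925 and 946 in wild-type sham and 1007, 997 and 1021 in wild-type ischemia arrays. Although these groups did not overlap, the difference was 0.10 (95% interval -0.15 to 0.35, limma adjusted p = 0.608), and with the wild-type groups alone in the fit it did not pass either (adjusted p = 0.485). SUMO-KD arrays ran from 836 to 1146. The 4 kainate genes had changes between 0.06 and 0.27 in wild-type and between -0.02 and 0.15 in SUMO-KD. Grm8, a presynaptic group III metabotropic glutamate receptor, ran from 23.2 to 55.4 over all arrays and changed by -0.07 over both genotypes (95% interval -0.33 to 0.18).

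Of the 3 muscarinic receptors 2 fell over both genotypes, where 14.0% of all genes fell. Whether a class differed from all genes was not tested. Chrm3, the M3 receptor, read 61.6, 69.7 and 52.4 in wild-type sham and 29.2, 7.23 and 17.1 in wild-type ischemia arrays. Its SUMO-KD arrays read 41.1, 40.7 and 36.3 after sham surgery and 14.6, 27.1 and 36.4 after ischemia, with 1 ischemia array in the sham range. Chrm3 fell by 0.92 in wild-type (1.90-fold, SE 0.17, limma adjusted p = 0.00305) and by 0.62 over both genotypes (adjusted p = 0.00256), while its change in SUMO-KD was -0.32 (adjusted p = 0.284). The difference between these responses was 0.61 (95% interval 0.09 to 1.13) and did not pass (adjusted p = 0.796).

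Chrm1, the M1 receptor, fell over both genotypes by 0.74 (1.67-fold, SE 0.18, limma adjusted p = 0.00934). Its intensities were 110.3, 67.5 and 33.9 in wild-type sham, 20.0, 30.3 and 31.2 in wild-type ischemia arrays, 30.6, 60.9 and 32.2 in SUMO-KD sham and 10.8, 4.35 and 19.0 in SUMO-KD ischemia arrays. Within each genotype the ischemia arrays were all below the sham arrays, and wild-type sham arrays ran from 33.9 to 110.3. Neither genotype passed alone (-0.73 with adjusted p = 0.0638 in wild-type, -0.74 with adjusted p = 0.0844 in SUMO-KD), but wild-type did after repeated quantile normalization (adjusted p = 0.0447), with array weights (adjusted p = 0.0401) and without wild-type sham replicate 3 (-1.01, adjusted p = 0.0126), and SUMO-KD did without wild-type sham replicate 1 (adjusted p = 0.0434) or 3 (adjusted p = 0.0365). Both genes reached the level of weak signals: Chrm1 was below 32 on 7 of 12 arrays and Chrm3 on 5 of 12. These included all wild-type ischemia arrays of both genes and all SUMO-KD ischemia arrays of Chrm1. Neither gene was tested where only brighter genes were kept. Chrm4, the Gi/o-coupled M4 receptor, stayed below 32 on all 12 arrays.

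Nicotinic receptors held 14 subunit genes, of which 1 fell over both genotypes, where 14.0% of all genes fell. Chrna5, an accessory alpha5 subunit, read 110.3, 64.2 and 67.2 in wild-type sham and 46.5, 50.6 and 25.8 in wild-type ischemia arrays. In SUMO-KD it read 103, 104 and 93.3 and, after ischemia, 78.2, 73.0 and 92.4. The ischemia arrays were below the sham arrays within each genotype. Chrna5 fell by 0.62 in wild-type (1.54-fold, SE 0.17, limma adjusted p = 0.0236) and by 0.42 over both genotypes (adjusted p = 0.0201), and changed by -0.22 in SUMO-KD (adjusted p = 0.471). The wild-type call was lost without wild-type sham replicate 1 (adjusted p = 0.0831), without wild-type ischemia replicate 3 (adjusted p = 0.0835) and with the wild-type groups alone in the fit (adjusted p = 0.0875). Chrna4, the alpha4 subunit of the main high-affinity brain receptor, had changes of -0.15 in wild-type and 0.12 in SUMO-KD and was not called. Chrna7, the subunit of the alpha7 receptor, was picked out after its values were seen: it read 34.6, 6.95 and 23.7 in wild-type sham and 40.2, 50.9 and 37.0 in wild-type ischemia arrays, a change of 0.51 that did not pass (adjusted p = 0.0955) except without wild-type sham replicate 1 (0.68, adjusted p = 0.0450).

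**Figure D2:**
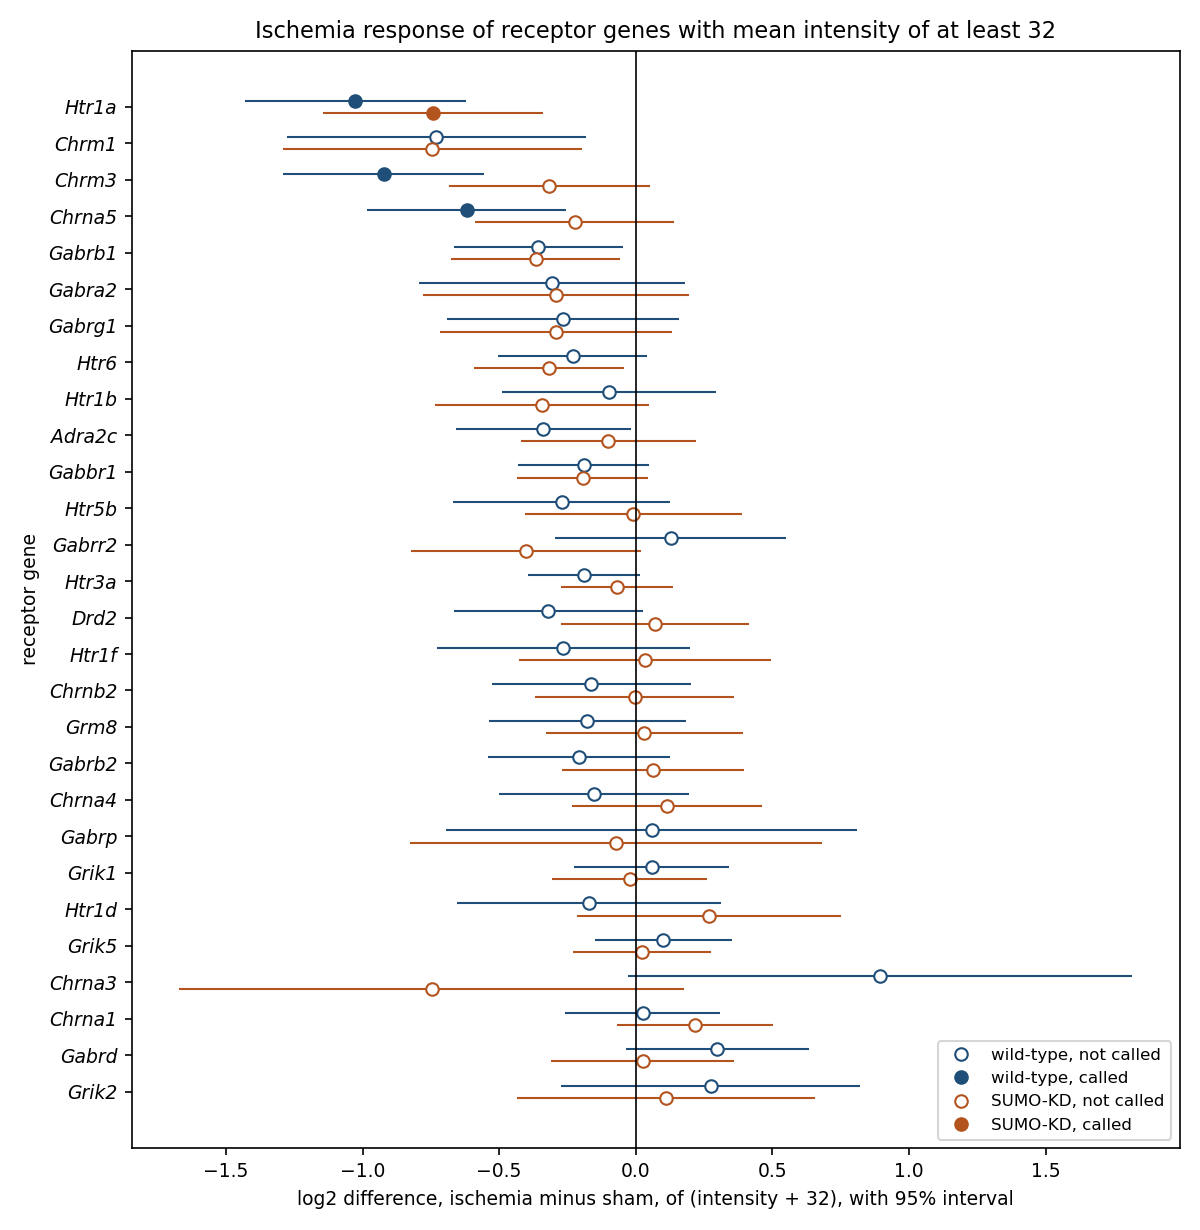
Log2 change with ischemia of (intensity + 32), with its 95% interval, in wild-type (blue) and SUMO-KD (orange) for the 28 receptor genes with a mean intensity of at least 32, ordered by the mean of both changes; filled points were called. Htr1a, Chrm3 and Chrna5 are filled in wild-type at -1.03, -0.92 and -0.62, and Htr1a alone is filled in SUMO-KD at -0.74.

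The plot of responses sets the remaining serotonin receptors beside Htr1a. Of 13 serotonin receptor genes, Htr1a and Htr6 fell over both genotypes and 0 rose, where 14.0% of all genes fell and 12.8% rose. The change was negative for 11 of 13 in wild-type and 8 of 13 in SUMO-KD, beside 55.9% and 54.3% of all genes. Htr6, a Gs-coupled receptor, read 47.1, 50.3 and 42.9 in wild-type sham, 34.7, 24.8 and 47.7 in wild-type ischemia arrays, 42.6, 48.9 and 60.6 in SUMO-KD sham and 36.9, 30.3 and 35.4 in SUMO-KD ischemia arrays. The wild-type groups overlapped and the SUMO-KD groups did not. Htr6 fell by 0.27 over both genotypes (SE 0.09, limma adjusted p = 0.0390), a call lost in 9 of the 12 fits that left out 1 array (adjusted p up to 0.0916) and with the trend and robust settings of eBayes (adjusted p = 0.0808). It stood when the omitted array was replicate 3 of wild-type ischemia or replicate 1 of either SUMO-KD group.

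Htr1b, a presynaptic Gi/o-coupled receptor, changed by -0.10 in wild-type and -0.34 in SUMO-KD, Htr3a, a subunit of the serotonin-gated channel, by -0.19 and -0.07, and Htr5b by -0.27 and -0.01. None of these changes was called. Drd2, the D2 dopamine receptor, read 62.9, 63.8 and 103 in wild-type sham and 45.2, 62.5 and 54.2 in wild-type ischemia arrays, which did not overlap, and its change of -0.32 did not pass (limma adjusted p = 0.193). In SUMO-KD the Drd2 change was 0.07 and the groups overlapped. Adra2c, an alpha2-adrenergic receptor, changed by -0.34 in wild-type (adjusted p = 0.137) and by -0.10 in SUMO-KD (adjusted p = 0.747). Adra1b, the alpha1-adrenergic receptor, stayed below 32 on all 12 arrays.

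Between genotypes, 0 of 57 receptors were called in sham arrays, where 1.5% of all genes were higher and 0.597% lower in SUMO-KD (2.1% in all), and 0 of 57 after ischemia, where 1.0% were higher and 0.557% lower (1.56% in all). By limma without adjustment 7 receptors had a p under 0.05 in sham arrays and 6 after ischemia, beside 1758 and 1915 of all 12394 genes. The receptors described next were chosen after their values were seen.

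Chrna3, the alpha3 nicotinic subunit, lies next to Chrna5 and Chrnb4 on chromosome 9 in the RefSeq gene table. It read 3.12, 31.2 and 14.3 in wild-type sham and 86.2, 122 and 165 in SUMO-KD sham arrays, so the genotypes did not overlap. After ischemia it read 14.5, 40.4 and 164 in wild-type and 53.2, 74.2 and 52.2 in SUMO-KD arrays, with wild-type ischemia replicate 3 far above its group. The sham difference was 1.71 (SE 0.42, limma adjusted p = 0.0684), which passed in 6 of 11 other settings, with adjusted p of 0.0103 to 0.0455, and without wild-type ischemia replicate 1 (adjusted p = 0.0332) or 3 (adjusted p = 0.00620). A second Chrna3 probe set, with a mean intensity of 65.6, responded to ischemia by 0.19 in wild-type and -0.74 in SUMO-KD, beside 0.89 and -0.75 for the first. The sham difference between genotypes did not pass with the mean of both probe sets, and was not computed for the second alone. Chrna5 had no overlap between genotypes after ischemia, 78.2, 73.0 and 92.4 in SUMO-KD against 46.5, 50.6 and 25.8 in wild-type, a difference of 0.65 (SE 0.17) that did not pass (adjusted p = 0.0873) except without wild-type sham replicate 1 (adjusted p = 0.0470).

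**Figure D3:**
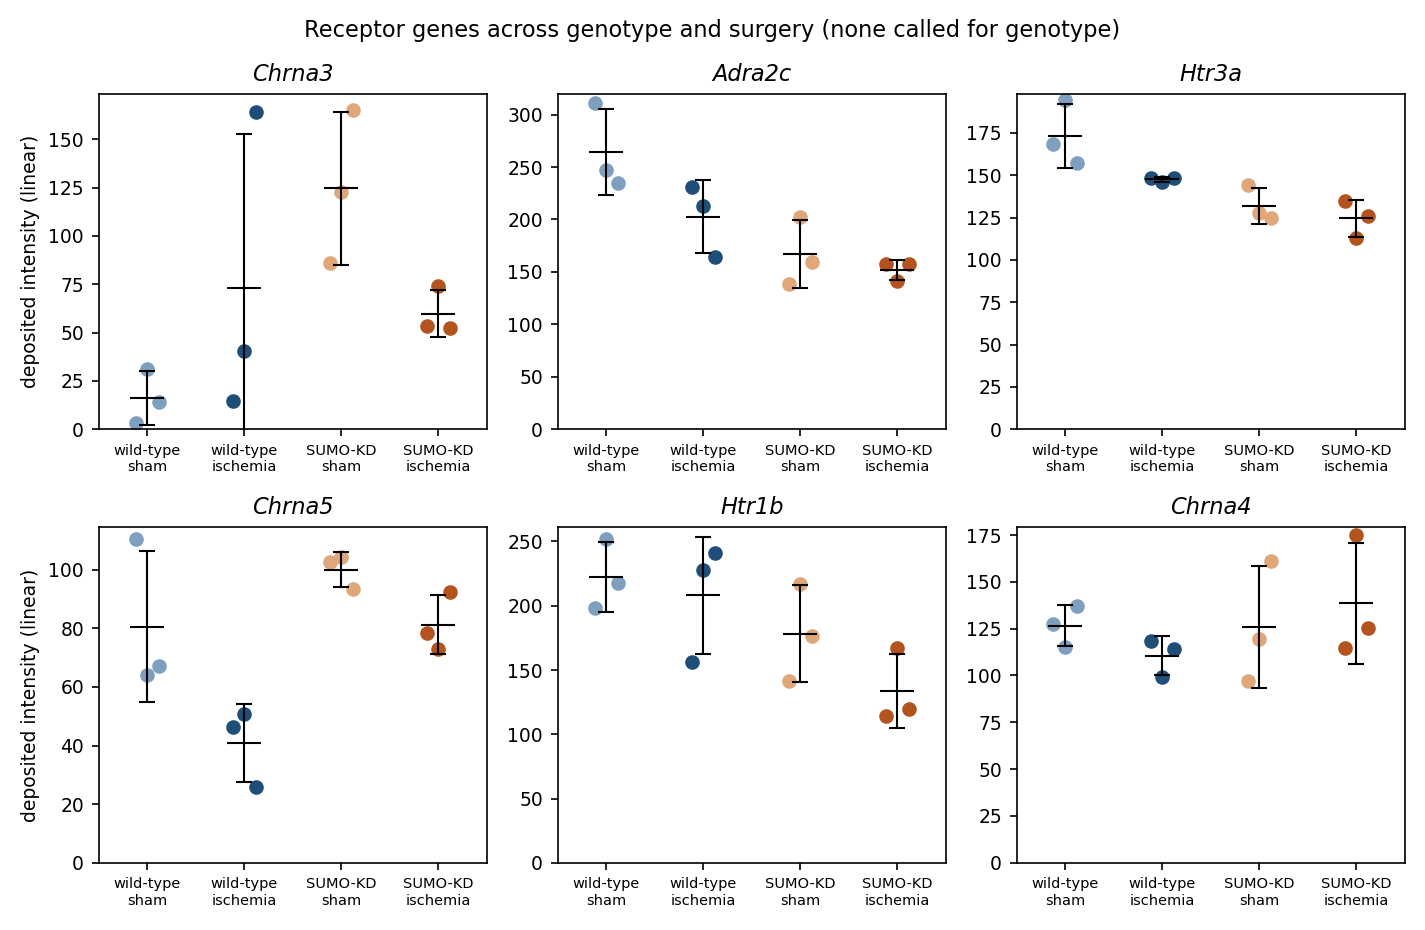
Deposited intensity (vertical axis, linear) by group of Chrna3, Adra2c, Htr3a, Chrna5, Htr1b and Chrna4, none of which was called between genotypes; points are arrays, bars the mean ± SD of 3 arrays. In sham arrays SUMO-KD lies above wild-type for Chrna3 (86.2 to 165 against 3.12 to 31.2) and below it for Adra2c (139 to 202 against 235 to 311) and Htr3a (125 to 144 against 157 to 194).

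Adra2c read 311, 247 and 235 in wild-type sham and 139, 202 and 159.6 in SUMO-KD sham arrays. After ischemia it read 231, 213 and 164 in wild-type and 157, 141 and 157 in SUMO-KD arrays. SUMO-KD arrays lay below wild-type arrays in both surgeries. The differences were -0.58 in sham (SE 0.15, limma adjusted p = 0.0744) and -0.34 after ischemia (adjusted p = 0.290), and the sham difference passed with array weights (adjusted p = 0.0268) and without SUMO-KD sham replicate 2 (-0.70, adjusted p = 0.0454). Htr3a likewise lay lower in SUMO-KD without overlap in both surgeries, with 168, 194 and 157 against 144, 127 and 125 in sham arrays and a difference of -0.32 (adjusted p = 0.119). Htr1b differed by -0.53 after ischemia (adjusted p = 0.182), with 114, 167 and 119 in SUMO-KD against 156, 228 and 241 in wild-type, which overlap. The genotype plots show these groups and Chrna4, whose SUMO-KD arrays spread from 96.8 to 175 around wild-type arrays of 99.0 to 137. The sum of CA1 pyramidal markers was lower in SUMO-KD sham than in wild-type sham arrays as well, and that of astrocyte markers was higher, as given above; their part in these differences was not tested.

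The ischemia responses of the 2 genotypes were not called as different for any receptor by limma (0 of 57). Of all genes 0.0161% were called, all lower in SUMO-KD. At an unadjusted p under 0.05 there were 2 receptors, beside 768 of all 12394 genes. The 5 smallest p among the receptors belonged to Chrna3 (-1.64, adjusted p = 0.773), Chrm3 (0.61, adjusted p = 0.796), Glra3 (0.48, adjusted p = 0.802), Chrnb1 (0.51, adjusted p = 0.806) and Gabrq (0.59, adjusted p = 0.814), the last 3 with mean intensities below 32. The medians of the receptors and of all genes for this difference were 0.10 and 0.01.

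Genes that act with these receptors were read in lists. Over both genotypes 12.8% of all genes rose and 14.0% fell, which is the background for the counts of each list. In the list of 25 metabotropic glutamate and kainate partners, 19 had a value, and 3 rose and 0 fell over both genotypes: Rgs2, Rgs4 and Siah1a. Rgs2 and Rgs4 shorten signals of Gq- and Gi/o-coupled receptors by speeding GTP hydrolysis, and Siah1a is an E3 ubiquitin ligase whose family binds group I metabotropic glutamate receptors. Rgs2 read 1417, 1214 and 1258 in wild-type sham and 4682, 3591 and 4748 in wild-type ischemia arrays, but 1342, 1221 and 1313 in SUMO-KD sham and 2019, 2000.0 and 1416 in SUMO-KD ischemia arrays. Each genotype's ischemia arrays were above its sham arrays. Rgs2 rose by 1.71 in wild-type (limma adjusted p = 2.47e-05), changed by 0.46 in SUMO-KD (adjusted p = 0.0730) and was lower by 1.25 in SUMO-KD than in wild-type after ischemia (-1.25, SE 0.15, adjusted p = 0.00151), a call that stood in all 12 omissions and 11 other settings. The difference of its responses was -1.25 (adjusted p = 0.145).

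Rgs4 rose by 0.91 in wild-type (limma adjusted p = 0.000372) and by 1.04 in SUMO-KD (adjusted p = 0.000205), from 1095 to 1421 in wild-type sham to 2207 to 2687 in wild-type ischemia arrays. Siah1a rose by 0.55 over both genotypes (adjusted p = 0.00186), and its wild-type call (0.46, adjusted p = 0.0462) was lost in 9 of 12 omissions and 5 of 11 other settings.

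Among 34 monoamine partners 23 had a value, and 3 rose and 1 fell over both genotypes, where 12.8% of all genes rose and 14.0% fell. S100a10, which encodes the p11 protein that carries 5-HT1B and 5-HT4 receptors to the cell surface, rose by 1.42 in wild-type (limma adjusted p = 5.95e-05) and by 0.81 in SUMO-KD (adjusted p = 0.00383). It read 190.0, 192 and 234 in wild-type sham and 719, 489 and 623 in wild-type ischemia arrays, and 205, 262 and 213 and then 406, 454 and 397 in SUMO-KD. Pde4b, a phosphodiesterase that degrades cAMP made downstream of Gs-coupled receptors, rose by 1.06 in wild-type (adjusted p = 8.58e-05) and by 0.42 in SUMO-KD (adjusted p = 0.0321), where the call was lost in 5 of 12 omissions and 2 of 11 other settings. In sham arrays it was 0.63 higher in SUMO-KD (adjusted p = 0.0122), with 1368, 1169 and 1099.8 against 775, 775 and 760.2, a call lost when replicate 1 of either sham group was omitted. Arrb2, a beta-arrestin that ends G protein signalling, fell by 0.26 over both genotypes (adjusted p = 0.0381), and this call was lost in 9 of 12 omissions and 3 of 10 other settings. Adcy8, an adenylyl cyclase named after its values were seen, rose by 0.29 over both genotypes (adjusted p = 0.0408), a call lost in 8 of 12 omissions and 3 of 10 other settings.

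**Figure D4:**
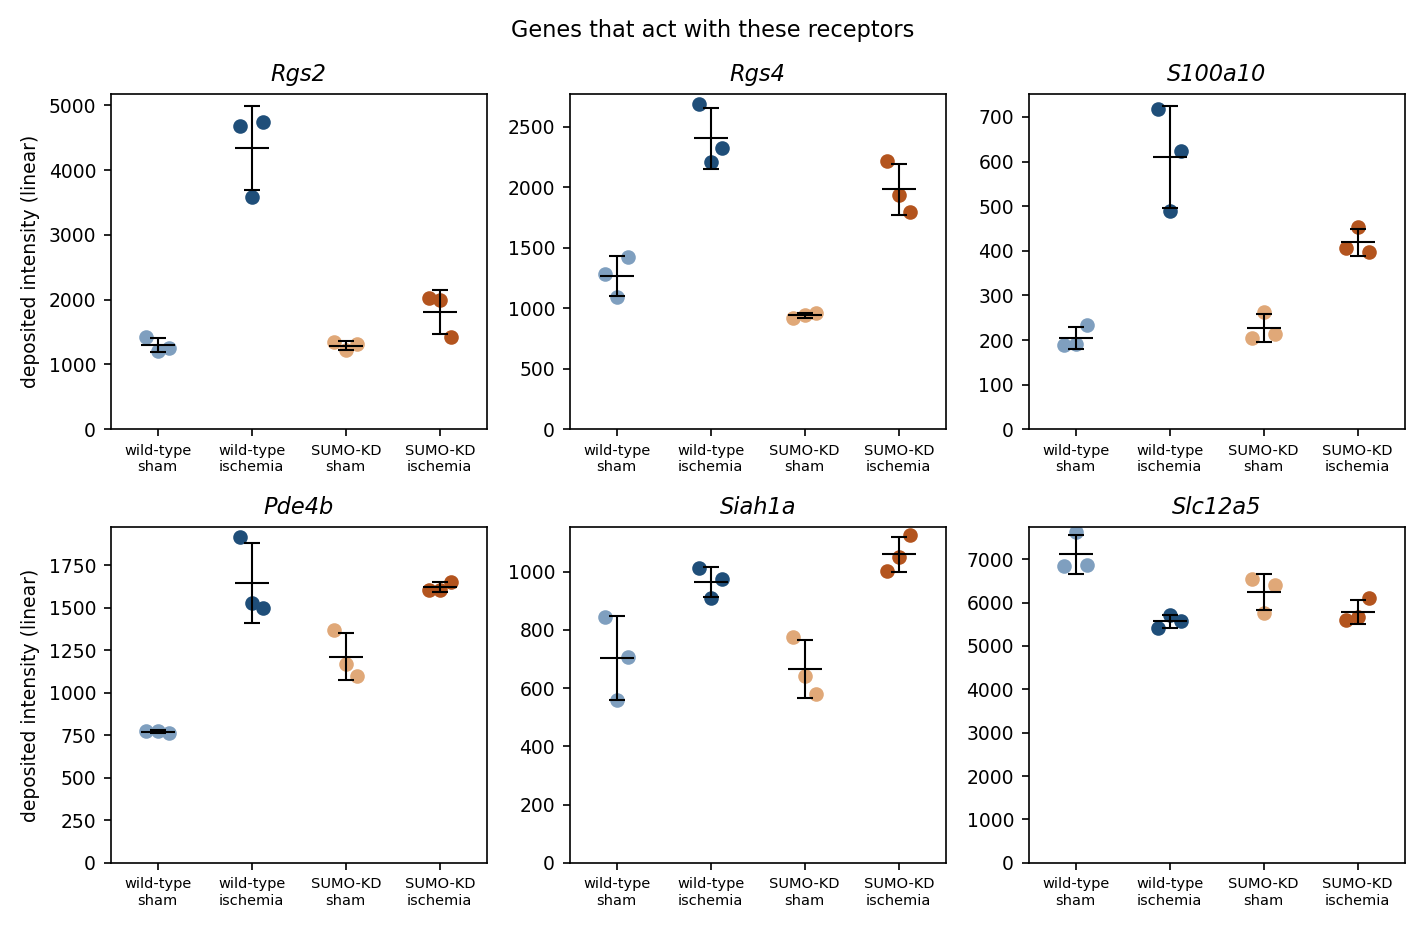
Deposited intensity (vertical axis, linear) by group of Rgs2, Rgs4, S100a10, Pde4b, Siah1a and Slc12a5, genes that act with these receptors; points are arrays, bars the mean ± SD of 3 arrays. Rgs2 stands at 3591 to 4748 in wild-type ischemia arrays and at 1416 to 2019 in SUMO-KD ischemia arrays, and Pde4b in SUMO-KD sham arrays (1099.8 to 1368) lies above wild-type sham arrays (760.2 to 775).

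Of 26 inhibitory synapse partners 16 had a value, with 0 rises and 2 falls over both genotypes, where 12.8% of all genes rose and 14.0% fell. Slc12a5, the KCC2 cotransporter that keeps neuronal chloride low so that GABA-A receptors inhibit, read 6841, 7632 and 6856 in wild-type sham and 5418, 5705 and 5569 in wild-type ischemia arrays. It fell by 0.35 in wild-type (limma adjusted p = 0.0148) and by 0.23 over both genotypes (adjusted p = 0.0149), with -0.11 in SUMO-KD (adjusted p = 0.503). The wild-type call was lost without wild-type sham replicate 2 or wild-type ischemia replicate 1, with the wild-type groups alone in the fit and with the mean of its probe sets, which also ended the call over both genotypes (-0.11, adjusted p = 0.202). Clptm1, which limits the delivery of GABA-A receptors to the cell surface, fell by 0.19 over both genotypes (adjusted p = 0.0475), a call lost in 10 of 12 omissions and 3 of 10 other settings. Of 15 cholinergic partners 11 had a value, and 0 were called over both genotypes by limma (1 at an unadjusted p under 0.05, beside 4651 of all 12394 genes). The shares of all genes called in the same comparisons, given above, are the background for these lists.

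The AMPA and NMDA receptor subunits, the other glutamate-gated channels, were set beside the members as a related family. Of 11 listed, 9 had a value, with 1 rise (Grin2a, 0.28, limma adjusted p = 0.0451) and 1 fall (Gria1, -0.26, adjusted p = 0.0363) over both genotypes and 0 calls within either genotype (3 at an unadjusted p under 0.05 in wild-type, 0 in SUMO-KD). Their median change was -0.22 in wild-type and -0.12 in SUMO-KD, beside -0.13 and -0.01 for the 57 receptors. The difference between the families was not tested.

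Htra1, a secreted serine protease and no receptor, entered only through the letters of its symbol. It read 4698, 4508 and 4019 in wild-type sham and 3441, 3442 and 3049 in wild-type ischemia arrays, and fell by 0.41 in wild-type (SE 0.10, limma adjusted p = 0.0141) and by 0.32 over both genotypes (adjusted p = 0.00536). The wild-type call was lost without wild-type sham replicate 1 or wild-type ischemia replicate 3 (adjusted p up to 0.0596). Htra2 and Htra3 were not called in any comparison.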

How the data were processed

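Trizol was used to extract the RNA, and hybridization targets were made with the MessageAmp Premier kit (per the labels). As for the values, the authors deposited 1 linear intensity per probe set and array for 22690 probe sets; how the table was computed is not stated in the sources used here. Partek 6.6 and RMA appear in the submitters' processing notes, but the deposited intensity values are linear, with a mean of 500.2 on every array after 2% of values were cut at each end, so the plan for log2 values was replaced by log2(intensity + 32). That offset came from earlier processing of these data. No detection call was used, and precision is limited by the number of arrays.

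Of the probe sets, 20393 had 1 symbol, 691 had several and 1606 had none; only the first were named. The brightest probe set per gene gave 12394 genes. The model held 1 mean for each of the 4 groups and was fitted by lmFit and eBayes of limma 3.58.1 under R 4.3.3, two-sided, and the procedure was tested on simulated data. Members, lists and tests were chosen with earlier results of these data known. The rule for names took the receptors called in any comparison, the brightest of each class, the 5 smallest p for the difference of responses, and up to 3 called genes of each partner list. All 57 receptor symbols were found unchanged in the RefSeq table (GRCm38.p6), used for neighbours only. Alternatives were other offsets (16, 64 and none, the last added after seeing the data), the mean of probe sets, a filter at a mean log2 of 5, median centring, quantile normalization, the replicate number as a block, the compared groups alone, eBayes trend and robust settings, array weights, and omission of each array.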

Additional observations from a re-analysis of the deposited data

Results flagged for a closer look

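Tmem35a, also known as NACHO, a chaperone needed to assemble alpha7 nicotinic receptors, had readings that went opposite ways in the genotypes, though this difference was not called. It read 458, 456 and 431 in wild-type sham and 594, 516 and 512 in wild-type ischemia arrays, all higher, but 632, 579.7 and 669 in SUMO-KD sham and 474, 511 and 514 in SUMO-KD ischemia arrays, all lower. Its changes were 0.25 (limma adjusted p = 0.0720) and -0.31 (adjusted p = 0.0469), and their difference was -0.56, which did not pass (adjusted p = 0.425). In sham arrays Tmem35a was 0.45 higher in SUMO-KD (adjusted p = 0.0236). The SUMO-KD ischemia call was lost in 10 of 12 omissions and 5 of 11 other settings, among them the replicate number as a block (adjusted p = 0.0683), and the sham call in 5 omissions and 2 other settings.

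Hap1, a huntingtin-associated protein that takes part in GABA-A receptor traffic, showed the same arrangement. It read 201, 237 and 267 and then 271, 309 and 287 in wild-type, and 367, 331 and 441 and then 327, 276 and 324 in SUMO-KD. The changes were 0.27 and -0.27, and their difference of -0.54 did not pass (limma adjusted p = 0.718). In sham arrays Hap1 was 0.62 higher in SUMO-KD (adjusted p = 0.0263), a call lost in 4 of 12 omissions and 2 of 11 other settings. Both genes were seen among the partner lists and named for this arrangement after their values were known. How many of all genes show it was not counted. The SUMO-KD sham arrays enter both the sham difference and the SUMO-KD change, so these are not separate observations.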

How the results depend on the processing

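The counts of receptors that fell with ischemia were 3 in wild-type and 6 over both genotypes. They stayed within 1.5 times of these under the other settings, 11 in wild-type and 10 over both genotypes. Under the filter on dim genes Chrm3 was not tested and left the wild-type falls, and Chrm1 and Chrm3 left those over both genotypes. The counts were 2 to 4 and 5 to 6 when single arrays were left out. Calls in either direction were then 2 to 5 in wild-type (5 without wild-type sham replicate 3, where Chrm1 joined the falls and Gabrd rose) and 5 to 6 over both genotypes, where at most 1 rose. The SUMO-KD count of 1 became 0 with the mean of probe sets, and with single arrays left out 0 to 3 were called (3 without SUMO-KD ischemia replicate 1, where Gabrb1 joined Htr1a and Glra3 rose), of which 0 to 2 fell. Between genotypes in sham arrays the count of 0 became 1, with Chrna3, under the filter on dim genes (adjusted p = 0.0455), repeated quantile normalization (adjusted p = 0.0412), the compared groups alone (adjusted p = 0.0349) and the trend and robust settings of eBayes (adjusted p = 0.0319), and 2, with Chrna3 and Adra2c, under array weights; it was 0 to 1 with single arrays left out. After ischemia it was 0 to 1 with single arrays left out, and the count for the difference of responses was 0 in all of them by limma. The fit on the compared groups alone cannot give the mean response or the difference of responses.

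With the replicate number as a block, Chrna3 in sham arrays (adjusted p = 0.0396) and Htr1b after ischemia (-0.53, adjusted p = 0.0497) were called between genotypes, 1 receptor each in place of 0, and no receptor call for ischemia changed; among the partner genes with a call, that of Tmem35a for ischemia in SUMO-KD was lost (adjusted p = 0.0683). Deviations of same-numbered samples correlated between -0.17 and 0.28 (median 0.06, 18 pairs), those of other pairs between -0.36 and 0.34 (median -0.03, 36 pairs), and 6 of 12 arrays correlated best with an array of their own number. Number 1 arrays of the groups other than wild-type sham correlated at 0.28, 0.25 and 0.20. Since not every same-numbered pair correlated above 0.1 and no label ties a number to a shared batch, the numbers were not treated as a pairing.

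Some alternatives leave a log2 change as it was and alter only its test, so direction could not turn there. These were omission of an array outside the compared groups, the filter on dim genes, the replicate block, the compared groups alone and the eBayes settings. Of 2073 single-gene values, 1916 kept direction and side of the threshold, 115 lost a call, 22 gained one and 20 turned direction. All that turned were changes that were not called. Chrna4 in SUMO-KD was -0.019 with the mean of probe sets, and Drd2 in SUMO-KD was -0.020 with array weights. With single arrays left out, the ranges were -0.20 to 0.070 for Htr1b in wild-type; in SUMO-KD -0.20 to 0.023 for Adra2c, -0.034 to 0.27 for Chrna4, -0.072 to 0.18 for Drd2, -0.025 to 0.063 for Gabrd, -0.093 to 0.12 for Grik5, -0.11 to 0.18 for Grm8 and -0.15 to 0.080 for Htr5b; and over both genotypes -0.094 to 0.059 for Chrna4 and -0.15 to 0.0025 for Grm8. The causes were not tested. Weak signals are one limit, as 29 of 57 receptors had means below 32.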
